A study of Mus musculus with 9 samples.

Results

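The colony-stimulating factors are the secreted proteins that drive the survival, growth and differentiation of myeloid cells, and with their receptors they make up the gene family described here. The rule named 8 genes, and a gene could be analysed if the platform annotation gave at least 1 probe set to its symbol alone. This left 7 of the 8 genes, read by 12 of the 45037 probe sets: the ligand genes *Csf1*, *Il34* and *Csf3* and the receptor genes *Csf1r*, *Csf3r*, *Csf2rb* and *Csf2rb2*. No probe set carried the symbol *Csf2ra* in the annotation used here, so the alpha chain of the GM-CSF receptor was not analysed. A gene with more than 1 probe set was represented by the brightest, by the mean over the 9 arrays, and the same was done for all 17097 genes with a probe set of their own.

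The mice were adult male C57Bl/6J animals of 10 to 12 weeks with no genetic change stated in the labels. They received PBS or LPS, the bacterial cell wall component that is sensed by TLR4, into the striatum of one hemisphere and were perfused with saline before the injected side of the brain was dissected. The 3 groups of 3 arrays were PBS at 4 d after the injection, LPS at 1 d (the induction phase in the design) and LPS at 4 d (the resolution phase). The RNA on an array came from 3 mice, and n = 3 therefore counts pools. All PBS pools were taken at 4 d, so at 1 d an effect of LPS and of recent surgery cannot be told apart.

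CSF-1 (also called M-CSF) and IL-34 both bind the tyrosine kinase receptor CSF1R, on which microglia and most tissue macrophages depend for survival. In the healthy brain IL-34 is made mainly by neurons, and CSF-1 by glia. G-CSF, the product of *Csf3*, acts through the receptor encoded by *Csf3r* and is the principal factor for the production and release of neutrophils. GM-CSF acts through a specific alpha chain paired with the common beta chain encoded by *Csf2rb*, which also serves the receptors of IL-3 and IL-5. The mouse has a second beta chain gene, *Csf2rb2*, whose product serves IL-3 alone.

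The moderated F-test of limma across the 3 groups gave an adjusted p under 0.05 for 6 of the 7 genes, against 7.67% of all genes, and 0.388 for *Il34*. For a pair of groups, a change was called where limma's p, adjusted by Benjamini-Hochberg over every probe set, was under 0.05 and the fold was at least 1.5. At 1 d after LPS, 5 of the 7 genes were higher than after PBS (*Csf1*, *Csf3*, *Csf3r*, *Csf2rb* and *Csf2rb2*) and 0 were lower, where 3.86% of all genes were called higher and 0.532% lower. At 4 d, 5 were higher (*Csf1*, *Csf1r*, *Csf3r*, *Csf2rb* and *Csf2rb2*) and 0 were lower, where 4.21% of all genes were called higher and 0.205% lower. Between the times, *Csf1r* rose and *Csf3* fell, where 1.84% of all genes were higher and 1.37% lower at 4 d. All 3 arrays of LPS lay above all 3 of PBS for 5 genes at 1 d and 5 at 4 d, as they did for 11.5% and 12% of all genes. Between the times the arrays of 2 genes did not overlap and were higher at 4 d (11.4% of all genes), and those of 2 genes were lower (9.76% of all genes). The median log2 change of the 7 genes against PBS was 1.48 at 1 d and 1.32 at 4 d, with −0.03 and −0.02 over all 17097 genes, and −0.28 between the times, with 0.00237 over all genes. Both comparisons to PBS use the same 3 PBS arrays. With 3 arrays in a group the two-sided exact permutation p of a single gene is at least 0.1, and this number limits the precision.

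**Figure D1:**
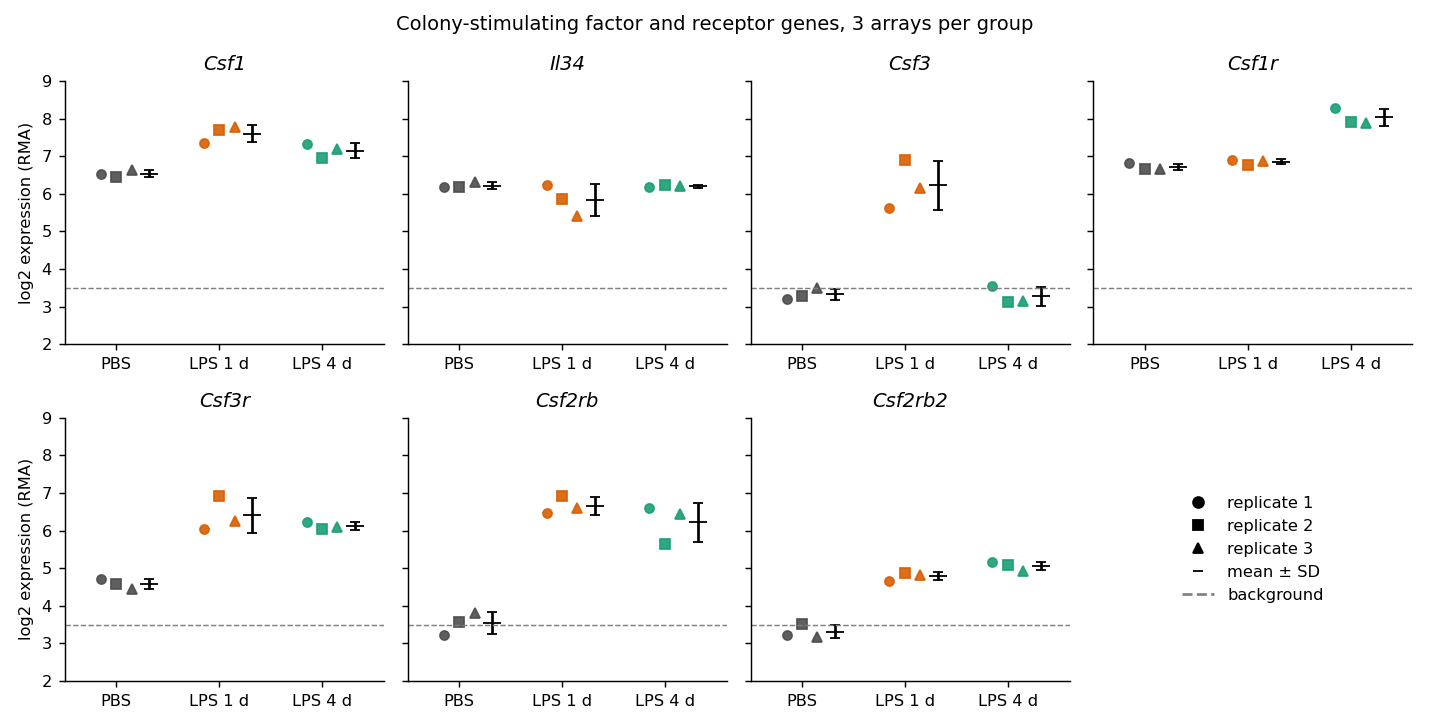
Log2 expression (y axis) of the 7 genes in the 3 groups (x axis), with 1 symbol per array, the mean and SD beside them, and a dashed line at background, a log2 value of 3.49. The mean of *Csf3* lies above background only at 1 d, *Csf1r* is higher at 4 d than in the other groups, and *Csf3r*, *Csf2rb* and *Csf2rb2* are higher at both times after LPS than after PBS.

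**Figure D2:**
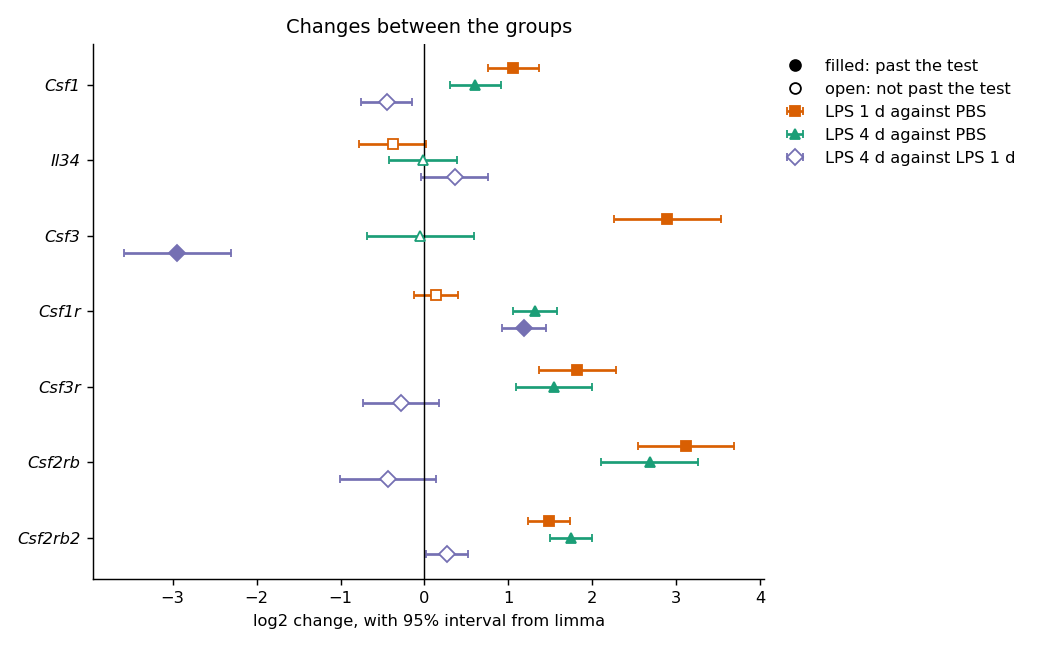
Log2 change (x axis) of each gene (y axis) in the 3 comparisons, with the 95% interval from limma, filled symbols for changes past the test and open symbols for the others. *Csf1r* and *Csf3* have filled symbols between the times, at 1.18 and −2.95.

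Promoter sequences are shown for the 3 analysed genes that have one in the RefSeq promoter table (GRCm38.p6). All were called higher at both times after LPS, *Csf1* at 4 d only near the thresholds. The table held 4 of the 8 genes, the other one being *Csf2ra*. Each run covers 250 bases before the transcription start and 50 after it, 5′ to 3′ on the strand of the gene. Capitals mark matches, on either strand, to the letters GAGGAA (core of the PU.1 site), TTNNGNAA (C/EBP), and to GGGA and CC with any 4 bases between them (NF-κB). These are factors that act on myeloid and inflammatory genes.
*Csf1*, chr3:107760420-107760719, minus strand: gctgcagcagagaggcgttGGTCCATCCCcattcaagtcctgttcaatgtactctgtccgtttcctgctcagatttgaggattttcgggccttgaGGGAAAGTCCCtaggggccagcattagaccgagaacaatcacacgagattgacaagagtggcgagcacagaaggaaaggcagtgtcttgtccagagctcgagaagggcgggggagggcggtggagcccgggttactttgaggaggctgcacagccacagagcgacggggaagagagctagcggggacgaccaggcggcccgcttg
*Csf3r*, chr4:126024409-126024708, plus strand: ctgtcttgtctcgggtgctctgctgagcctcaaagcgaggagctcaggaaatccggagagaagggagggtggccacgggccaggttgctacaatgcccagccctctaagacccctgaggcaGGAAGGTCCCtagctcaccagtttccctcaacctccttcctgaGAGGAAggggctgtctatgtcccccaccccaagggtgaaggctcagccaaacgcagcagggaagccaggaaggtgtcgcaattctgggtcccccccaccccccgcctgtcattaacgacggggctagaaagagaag
*Csf2rb2*, chr15:78305672-78305971, minus strand: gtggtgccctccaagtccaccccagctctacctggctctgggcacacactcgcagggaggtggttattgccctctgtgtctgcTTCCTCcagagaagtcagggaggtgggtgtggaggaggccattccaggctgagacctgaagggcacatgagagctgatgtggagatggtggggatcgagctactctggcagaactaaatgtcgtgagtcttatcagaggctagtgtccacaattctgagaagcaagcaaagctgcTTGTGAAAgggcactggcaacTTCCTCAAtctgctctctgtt

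With the start counted as position 1, the *Csf1* window held the NF-κB letters from position −155 to −146 and, overlapping them on the other strand, from −154 to −145, and once more from −231. It held neither of the other motifs. The *Csf3r* window held GAGGAA from −86 to −81 and the NF-κB letters from −129 to −120. The *Csf2rb2* window held GAGGAA on the other strand from −167 and from 30, the second of them inside a C/EBP match from 30 to 37, and another C/EBP match from 9 to 16. Such short motifs are common: of 32851 promoters of the same length in the table, 28.3% held GAGGAA, 20.7% held the NF-κB letters and 40.7% held TTNNGNAA. The matches are a description of these windows, and binding was not measured.

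*Csf3* (1419427_PM_at), the gene of G-CSF, had a group mean above background at 1 d only. Its log2 values were 3.20, 3.28 and 3.49 in PBS replicates 1 to 3, 5.61, 6.91 and 6.14 at 1 d after LPS, and 3.56, 3.12 and 3.15 at 4 d. The 1 d arrays lay far above all the others and spread widely (SD 0.65), whereas the PBS and 4 d arrays overlapped and had means of 3.33 and 3.28, below the background level of 3.49. Background here means the level of the brightest, by mean, among 23 nonspecific control probe sets. The rise at 1 d was 2.90 on the log2 scale (SE 0.28, limma adjusted p = 3.47e-04), and since the PBS level lay at background it corresponds to a level at least 6.64-fold higher. From 1 d to 4 d *Csf3* fell by 2.95 (SE 0.28, limma adjusted p = 8.96e-04), to a level at least 6.54-fold lower. Compared to PBS, the change at 4 d was −0.05, with a 95% interval from −0.69 to 0.59.

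The 3 genes with the most similar profile to *Csf3* over the 9 arrays, among 12063 other genes above background in at least 1 group, were *Slfn3* (Pearson r = 0.989), *Il1r2* (r = 0.988) and *Il6* (r = 0.987). *Il6* encodes interleukin 6, and *Il1r2* the decoy receptor of interleukin 1, which neutrophils express. Their means were at or near background in the PBS and 4 d groups as well, for *Il6* at 1.78 after PBS, 5.20 at 1 d and 1.72 at 4 d. With 3 groups of 3 arrays, r is set mainly by the group means and is given here only as a measure of likeness.

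*Csf3r* (1418806_PM_at), which encodes the G-CSF receptor, was higher than after PBS at both times. Its values were 4.72, 4.58 and 4.44 after PBS, 6.04, 6.92 and 6.25 at 1 d, and 6.23, 6.03 and 6.10 at 4 d. All 6 LPS arrays lay above all PBS arrays, and the arrays of both times overlapped. *Csf3r* rose by 1.82 at 1 d (SE 0.20, limma adjusted p = 7.97e-04) and by 1.55 at 4 d (SE 0.20, limma adjusted p = 0.0025), which are 3.54-fold and 2.92-fold. The difference between the times was −0.28 and did not pass the test (95% interval −0.73 to 0.18, limma adjusted p = 0.616), with −0.02 without LPS 1 d replicate 2 and −0.46 without replicate 1. At 4 d *Csf3* lay at background, while *Csf3r* was above its PBS level. The genes most like *Csf3r* were *Ccl19* (r = 0.991), a chemokine gene, *Ikbke* (r = 0.991), a kinase gene of interferon induction, and *Pilra* (r = 0.987), an inhibitory receptor gene of myeloid cells.

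*Csf3r* is a gene of neutrophils as well as of other myeloid cells, so it was set beside 12 neutrophil markers that could be analysed of 14 listed. At 1 d, 7 of the 12 were higher than after PBS, among them *Lcn2* (6.99) and *S100a9* (5.87). At 4 d 1 was called higher, *Lcn2* (5.26), which reactive astrocytes also express. *S100a8* and *S100a9* had log2 differences of 2.50 and 2.05 at 4 d that did not pass the test (limma adjusted p = 0.0628 and 0.0974). Between the times 4 fell, with *S100a9* down by 3.82 and *Il1r2*, at background after PBS, down by 3.10. The mean log2 value of the 12 markers ran from 3.03 to 3.59 over the PBS arrays, from 5.33 to 6.14 at 1 d and from 4.11 to 4.53 at 4 d. Their summed linear level ran from 102 to 188, from 3240.1 to 6992 and from 680.0 to 1331. At 4 d *Lcn2* was the brightest of the 12 on every array, at 9.77, 8.75 and 9.32, and made up most of that sum. The marker mean includes *Lcn2* as well. *Mpo*, *Elane* and *Camp*, granule genes expressed in neutrophil precursors, were at background in all groups. The marker mean also holds these genes, and *Cxcr2* and *Mmp8*, which were at background after PBS and at 4 d. Within each array, the log2 value of *Csf3r* minus the marker mean was 1.21, 1.55 and 0.85 after PBS, 0.70, 0.78 and 0.68 at 1 d and 1.71, 1.88 and 1.99 at 4 d. This difference was higher in all 4 d arrays than in all 1 d arrays. It is not a level of *Csf3r* per neutrophil, since the mean holds genes at background. Replicate 2 of the 1 d group had the highest neutrophil marker mean (6.14) and was also the highest 1 d array for *Csf3*, *Csf3r*, *Csf2rb* and *Csf2rb2*. Without it the 1 d rises of *Csf3* and *Csf3r* were 2.55 and 1.56, and the same 5 genes passed the test. In whole tissue, more cells of a type and more RNA per cell cannot be told apart, and the part of neutrophil numbers in these changes was not tested.

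**Figure D3:**
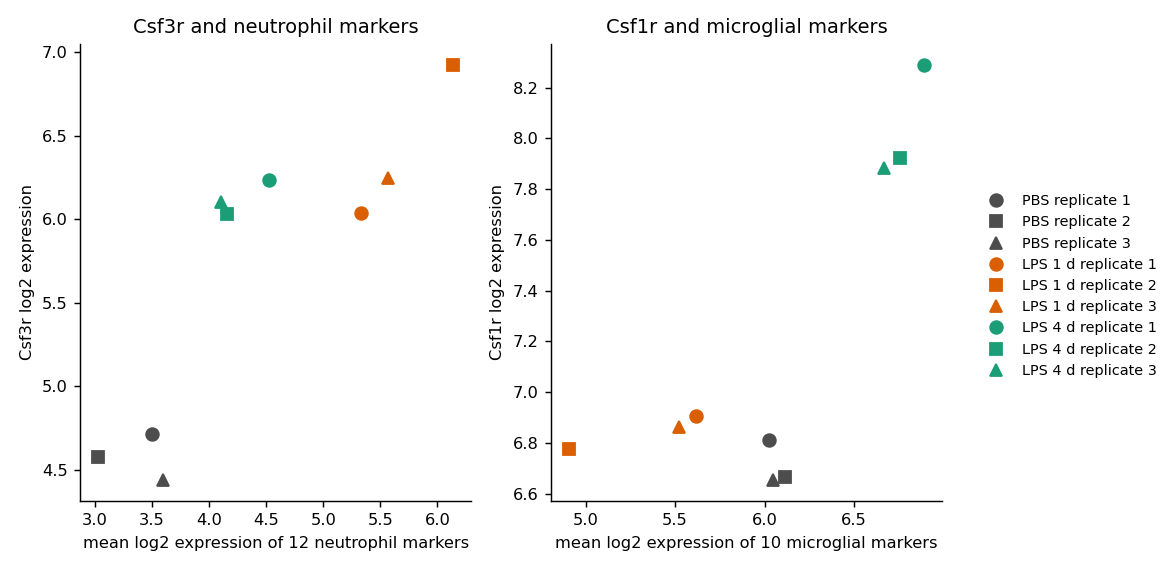
Left, log2 expression of *Csf3r* (y axis) against the mean log2 expression of 12 neutrophil markers (x axis), and right, *Csf1r* against 10 microglial markers, with 1 symbol per array and colours for the groups. The *Csf3r* values of both LPS groups overlap on the y axis although the 4 d arrays lie between 4.11 and 4.53 on the x axis and the 1 d arrays between 5.33 and 6.14. The 4 d arrays stand apart from the others for *Csf1r*.

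*Csf1r* (1423593_PM_a_at) differed from PBS at 4 d only. Its values were 6.81, 6.66 and 6.65 after PBS, 6.91, 6.78 and 6.86 at 1 d, and 8.29, 7.92 and 7.88 at 4 d. The PBS and 1 d arrays overlapped within a narrow range, and all 4 d arrays lay above them. At 1 d the change was 0.14, with a 95% interval from −0.12 to 0.40 (limma adjusted p = 0.631), so a rise of more than 1.32-fold lies outside the interval. At 4 d *Csf1r* was 1.32 higher than after PBS (SE 0.12, limma adjusted p = 2.41e-04), or 2.50-fold, and 1.18 higher than at 1 d (SE 0.12, limma adjusted p = 0.00102), or 2.27-fold. The genes with the most similar profile were *Ctsd* (r = 0.990), which encodes the lysosomal protease cathepsin D, *Tbxas1* (r = 0.988), which encodes thromboxane synthase, and *S100a1* (r = 0.988).

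Microglial markers were lower or not past the test at 1 d. Of 12 markers listed, 10 could be analysed, and at 1 d 3 of them were lower than after PBS and 0 higher, with log2 changes of −2.14 for *P2ry12* and −0.83 for *P2ry13* and a level of *Gpr34* at least 4.29-fold lower, at background. At 4 d 5 were higher than after PBS and 0 lower, led by *Fcrls* (2.23) and *Trem2* (1.61), and 8 were higher than at 1 d. The marker mean ran from 6.03 to 6.11 over the PBS arrays, from 4.91 to 5.62 at 1 d and from 6.67 to 6.89 at 4 d, and the summed linear level from 829.7 to 860.0, from 504 to 766 and from 1772 to 2000.1. *Slc2a5* was at background in all groups. The log2 value of *Csf1r* minus the marker mean was 0.79, 0.55 and 0.61 after PBS, 1.29, 1.87 and 1.34 at 1 d and 1.40, 1.17 and 1.22 at 4 d. This difference was higher in all 6 LPS arrays than in the PBS arrays. At 1 d *Csf1r* itself changed by only 0.14, and the marker mean was lower than after PBS. Of 12 markers of monocytes and recruited macrophages, another source of *Csf1r*, 11 could be analysed, and 7 were higher and 1 lower at 1 d, 8 were higher at 4 d, and between the times 2 rose and 3 fell. Their summed linear level ran from 220.2 to 263 over the PBS arrays, from 921 to 999 at 1 d and from 837 to 1359.9 at 4 d. All from background after PBS, *Chil3* rose at least 21.4-fold and *Arg1* at least 14.1-fold at 1 d, and *Ms4a7* at least 26.7-fold at 4 d. *Arg1* was also called higher at 4 d, with widely spread values of 8.06, 5.09 and 5.73. From 1 d to 4 d *Ms4a7* rose by 4.36 and *Chil3* fell by 3.09. *Cd163* and *Lyve1* were at background in all groups. *Mrc1* was the marker called lower at 1 d (−0.80), and at 4 d it was 0.97 higher than after PBS. *Ccr2*, at background after PBS and at 1 d, passed the test in no comparison. The part of these cells in the *Csf1r* values was not tested.

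The ligand gene *Csf1* (1460220_PM_a_at) was higher at 1 d. Its values were 6.53, 6.45 and 6.64 after PBS, 7.34, 7.69 and 7.77 at 1 d, and 7.32, 6.94 and 7.18 at 4 d. All LPS arrays lay above all PBS arrays, and all 4 d arrays lay below all 1 d arrays. The rise at 1 d was 1.06 (SE 0.14, limma adjusted p = 0.0020), or 2.08-fold. At 4 d *Csf1* was 0.61 higher than after PBS (SE 0.14, limma adjusted p = 0.0423), or 1.52-fold, which is near both thresholds. This call was lost with the replicate number as a block (limma adjusted p = 0.0772), by ordinary tests without moderation (adjusted p = 0.112) and without any 1 of 7 arrays, which were LPS 1 d replicates 2 and 3, LPS 4 d replicates 1 and 3 and PBS replicates 1, 2 and 3 (log2 changes of 0.52 to 0.66). The difference of −0.45 between the times did not pass the test (limma adjusted p = 0.168). The 3 genes with the most similar profile were *Cd274* (r = 0.992), which encodes the checkpoint ligand PD-L1, *Cnn3* (r = 0.992), which encodes an actin-binding calponin, and *Ceacam2* (r = 0.988).

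The 4 probe sets of *Csf1* did not give the same result. The second brightest, 1448914_PM_a_at, was 0.75 higher at 1 d (limma adjusted p = 0.0208), and at 4 d its change of 0.29 did not pass the test (adjusted p = 0.359). The other 2 were dim, with means of 4.35 and 3.46 over the 9 arrays, and their changes at 1 d were 0.18 and 0.28 (limma adjusted p = 0.699 and 0.628). The mean over all 4 probe sets changed by 0.57 at 1 d and 0.36 at 4 d and passed the test at neither time (limma adjusted p = 0.0596 and 0.236). The rise of *Csf1* at 1 d thus rests on the 2 brighter probe sets, and its call at 4 d on the brightest alone. The sources used here do not give which transcripts a probe set reads.

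*Il34* (1431920_PM_a_at), the gene of the other CSF1R ligand, passed the test in no comparison. Its values were 6.17, 6.17 and 6.32 after PBS, 6.24, 5.88 and 5.41 at 1 d, and 6.17, 6.24 and 6.19 at 4 d. The 4 d arrays lay close together (SD 0.04), while at 1 d replicates 2 and 3 lay below all PBS arrays and replicate 1 among them. The change at 1 d was −0.38 (95% interval −0.78 to 0.02, limma adjusted p = 0.349), with −0.16 without LPS 1 d replicate 3 and −0.58 without replicate 1, and the change at 4 d was −0.02 (95% interval −0.42 to 0.38, adjusted p = 0.976). At 4 d the interval leaves out a fall or a rise of 1.5-fold. At 1 d it does not leave out a fall of that size. Of the 8 neuronal and striatal markers that could be analysed of 10, 0 were called in any comparison by limma, and all 8 lay above background, as the labelled tissue requires.

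*Csf2rb* (1455660_PM_at), the common beta chain gene, was higher than after PBS at both times. Its values were 3.23, 3.57 and 3.81 after PBS, 6.45, 6.91 and 6.59 at 1 d, and 6.60, 5.63 and 6.43 at 4 d. All LPS arrays lay above all PBS arrays, and the arrays of both times overlapped. *Csf2rb* rose by 3.12 at 1 d (SE 0.25, limma adjusted p = 1.14e-04), or 8.67-fold, and by 2.68 at 4 d (SE 0.25, limma adjusted p = 3.82e-04), or 6.42-fold. The PBS mean of 3.53 lay just above background, which limits the precision of these folds. The difference between the times was −0.43 (95% interval −1.01 to 0.14, limma adjusted p = 0.529), with −0.14 without LPS 4 d replicate 2. The most similar profiles were those of *Igsf6* (r = 0.997), an immunoglobulin family gene of leukocytes, *Slc15a3* (r = 0.997), which encodes a lysosomal peptide transporter, and *Msn* (r = 0.996), which encodes the membrane linker moesin.

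A second *Csf2rb* probe set, 1421326_PM_at, was also higher at both times, by 1.88 at 1 d (limma adjusted p = 0.00251) and 1.59 at 4 d (adjusted p = 0.00736), from a PBS level at background, which gives bounds of at least 2.33-fold and at least 1.91-fold. The third, 1450200_PM_s_at, was at background in all 3 groups and changed by 0.09 and 0.05, so it measured nothing of the rise.

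**Figure D4:**
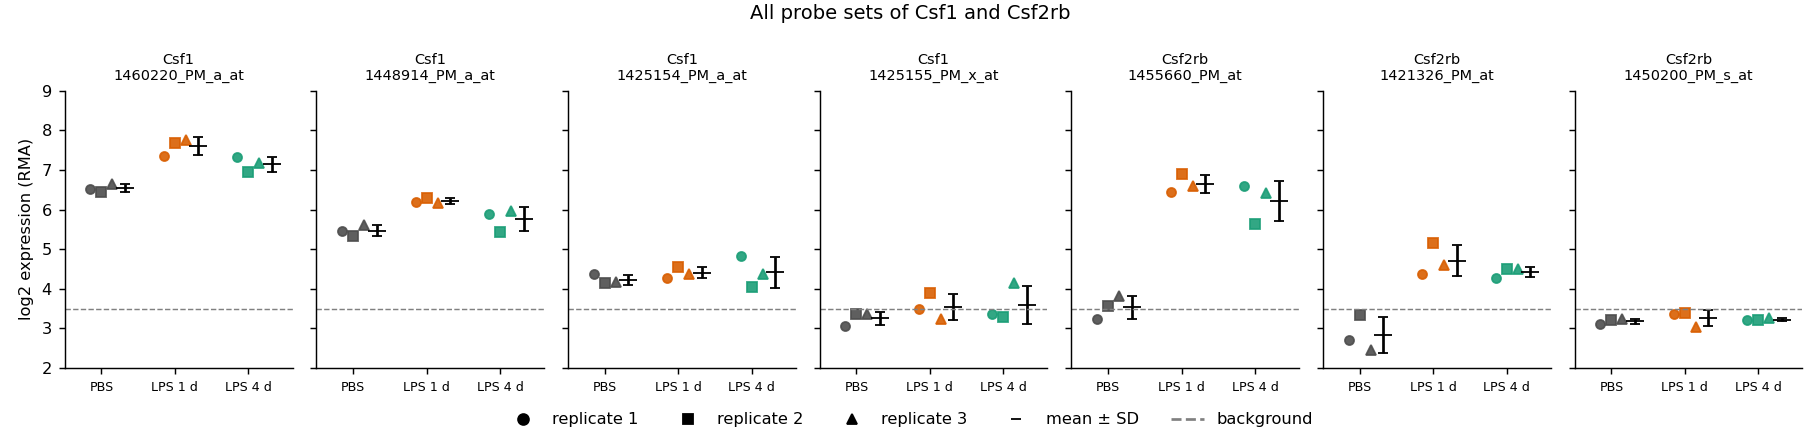
Log2 expression (y axis) of the 4 probe sets of *Csf1* and the 3 of *Csf2rb* in the 3 groups (x axis), with 1 symbol per array, mean and SD beside them, and a dashed line at the background value of 3.49. The 2 brighter probe sets of each gene are higher at 1 d after LPS than after PBS, while the other 2 of *Csf1* overlap between groups and the third of *Csf2rb* stays below background.

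*Csf2rb2* (1449360_PM_at), the IL-3 beta chain gene, went from background to a measurable level. Its values were 3.23, 3.50 and 3.18 after PBS, 4.66, 4.88 and 4.82 at 1 d, and 5.15, 5.09 and 4.93 at 4 d. The arrays of the 3 groups did not overlap, with PBS lowest and 4 d highest. It rose by 1.48 at 1 d (SE 0.11, limma adjusted p = 6.77e-05), to a level at least 2.45-fold higher, and by 1.75 at 4 d (SE 0.11, limma adjusted p = 3.59e-05), to a level at least 2.95-fold higher. The difference of 0.27 between the times did not pass the test (95% interval 0.02 to 0.52, limma adjusted p = 0.347). The log2 value of *Csf2rb* minus that of *Csf2rb2* was 1.86 ± 0.15 (SD, n = 3) at 1 d and 1.16 ± 0.54 (SD, n = 3) at 4 d. All 4 d arrays lay below all 1 d arrays, with replicate 2 of 4 d lowest at 0.54. Whether probes of one gene also read its near copy was not tested. The most similar profiles were those of *Slc2a1* (r = 0.993), the glucose transporter gene of brain endothelium, *Fermt3* (r = 0.987), an integrin activator gene of blood cells, and *Rps4x* (r = 0.987), a ribosomal protein gene.

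The ligand genes of the beta chains lay at background. *Csf2*, which encodes GM-CSF, *Il3* and *Il5* had means at or below background in all 3 groups, as had the alpha chain genes *Il3ra* and *Il5ra*. The *Csf2* values were 2.20, 2.20 and 2.17 after PBS, 2.83, 2.91 and 2.20 at 1 d and 2.32, 2.09 and 2.32 at 4 d, all below background. Of the 7 partner genes that could be analysed of 8 listed, 1 passed the test. It was *Adam17*, which encodes the protease that sheds CSF1R from the cell surface, higher by 0.76 at 1 d (SE 0.13, limma adjusted p = 0.00948) and by 1.28 at 4 d (SE 0.13, limma adjusted p = 4.95e-04). *Ptprz1*, which encodes another receptor of IL-34, changed by 0.01 and 0.09 and did not pass the test.

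Genes through which the receptors signal rose in part. Of 29 kinases, adaptors and inhibitors listed, 25 could be analysed, and 7 were higher at 1 d and 9 at 4 d, 0 were lower, and between the times 3 rose and 2 fell, with medians of 0.29, 0.23 and −0.02 over the 25. *Socs3*, the feedback inhibitor of the G-CSF receptor, went from 3.59 after PBS to mean values of 7.51 and 5.64 and thus rose by 3.91 (SE 0.19, limma adjusted p = 8.03e-06) and 2.04 (SE 0.19, limma adjusted p = 3.25e-04). Its PBS mean lay just above background, which limits the precision of these changes. *Stat3*, whose product carries the G-CSF signal to the nucleus, had means of 7.15, 8.65 and 7.80 and was higher at both times. From 1 d to 4 d *Socs3* fell by 1.87 and *Stat3* by 0.84. Which signals set these levels was not tested. *Tyrobp*, which encodes the adaptor DAP12 that works with CSF1R, had means of 7.48, 8.78 and 9.79, and *Pik3cg*, which encodes a leukocyte PI 3-kinase subunit, 4.27, 5.27 and 6.61. They were called higher than after PBS at both times and rose from 1 d to 4 d by 1.01 and 1.34. *Inpp5d*, which encodes the phosphatase SHIP1, rose between the times by 0.78. *Ptpn6*, which encodes the phosphatase SHP-1, rose by 2.66 and 3.19, and *Fgr*, a Src family kinase gene at background after PBS, at least 2.42-fold and 1.55-fold. The Janus kinase genes *Jak1* and *Jak2* passed the test at neither time, with changes of 0.08 and 0.29 at 1 d and −0.01 and 0.01 at 4 d, nor did *Stat5a* and *Stat5b*, which GM-CSF and IL-3 receptors use.

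Of 12 myeloid transcription factors listed, 10 could be analysed, and 3 were higher at 1 d and 6 at 4 d, with 0 lower. *Spi1*, which encodes PU.1, was at background after PBS and rose by 1.56 at 1 d (SE 0.22, limma adjusted p = 0.00363) and 1.80 at 4 d (SE 0.22, limma adjusted p = 0.00176), at least 2.46-fold and 2.90-fold. *Runx1* rose at least 2.49-fold and 4.33-fold from a PBS level at background. *Cebpb*, of the acute response, rose by 2.07 and 0.97 and fell by 1.10 between the times. *Irf8* and *Cebpa*, factors of macrophage and granulocyte lineages, rose by 1.82 and 1.26 at 4 d and were higher at 4 d than at 1 d by 1.12 and 0.68. At 1 d the difference of *Irf8* was 0.70 (limma adjusted p = 0.0665). That of *Cebpa* was 0.58 (limma adjusted p = 0.00675) and missed the call only on the fold. *Runx1* also rose between the times, by 0.80. For *Spi1* the change between the times was 0.24 and did not pass the test (limma adjusted p = 0.717). These lists were compared by counts and values only.

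Among 8 endothelial genes 2 rose at 1 d and 3 at 4 d, with the largest values for *Ly6c1* (1.08) and *Cdh5* (0.85) at 1 d and *Cldn5* (0.86) at 4 d. Among 8 astrocyte genes 2 rose at each time, *Gfap* (2.83 and 2.50) and *Aqp4* (0.65 and 0.88). Of 7 lymphocyte markers that could be analysed, 0 were called by limma in any comparison and 6, among them *Cd3e* and *Cd79a*, were at background in all groups. The array medians lay between 4.32 and 4.37.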

How the data were processed

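RNA from a block of brain around the injection site was pooled from 3 mice per array, labelled and hybridised to Affymetrix HT MG-430 PM arrays. The authors ran RMA in Affymetrix Expression Console (a release not given in the sources used here), which corrects background, normalizes the arrays and combines the probes of a set, and the deposited values are on the log2 scale. Replicates are pools, so p-values measure the spread between pools. After 104 control entries were left out, all 45037 probe sets were fitted with limma 3.58.1 in R 4.3.3 (1 mean per group, 9 arrays, empirical Bayes moderation, 6 residual and 3.02 prior degrees of freedom), and p was adjusted by Benjamini-Hochberg over all of them. The thresholds are those of the paper's methods. Gene names come from the platform annotation, where 28898 probe sets carry 1 symbol, 551 several and 15588 none. Of the 28898, 28689 were matched to the RefSeq gene table by Entrez identifier, and 0 symbols changed. A level at or below 3.49 was called background. A bound ("at least") sets the brighter group against the higher of 3.49 and the dim value on each array. Named genes are the 7 members, up to 4 called genes of each pathway list per comparison with the largest change, up to 2 markers of each cell type list, and the 3 genes most like each member. *Inpp5d*, *Jak1*, *Jak2*, *Stat5a*, *Stat5b*, *Ptprz1*, *P2ry13*, *Ccr2* and *Mrc1*, and the genes named for lying at background, were chosen after their values were seen. The members and lists were chosen with earlier results of these data known. The procedure was tested on simulated data. Replicate numbers did not pair the arrays (r of deviations from group means −0.05 to 0.04 in 9 same-numbered pairs, and −0.05 to 0.07 in the 18 others). Other settings are given with the closing observations. Figures were drawn with matplotlib 3.10.9 in Python 3.11.15.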

Additional observations from a re-analysis of the deposited data

Results flagged for a closer look

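Between the times after LPS, 2 of the 7 genes differed by limma's contrast of the groups, which holds no PBS pools of 1 d, so that time after LPS and time after surgery cannot be told apart in it. The log2 level of *Csf3* differed by −2.95 (4 d minus 1 d), and each of the 3 arrays of 4 d lay below all 3 of 1 d. The log2 level of *Csf1r* was 1.18 higher at 4 d than at 1 d, with all 3 arrays of 4 d above all 3 of 1 d.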

How the results depend on the processing

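Of 378 changes of the 7 genes recomputed under other settings, 353 kept their direction and their side of the threshold, 18 lost their call and 7 changed sign, of which 0 were called by limma in either setting. The sign changes were *Il34* at 4 d (0.0261 by medians, and −0.0422 to 0.0321 without 1 array, above 0 without PBS replicate 3), *Csf3* at 4 d (−0.192 to 0.0331 without 1 array, above 0 without LPS 4 d replicate 2 or 3 or PBS replicate 3) and *Csf1* between the times (0.00851 and 0.0520 with its 2 dimmest probe sets). The 18 lost calls were all of *Csf1* or *Csf2rb*, 11 of them with another probe set, the mean over probe sets, the replicate block or ordinary tests, and the other 7 without 1 array. The 5 genes called at 1 d and the 2 called between the times stayed 5 and 2 under each setting that kept the chosen probe sets, and the 5 at 4 d were 4 with the replicate block, with ordinary tests and with a fold of at least 2. The replicate block changed no other call of the 7 genes than that of *Csf1* at 4 d. Without any 1 array, 5 to 5 were called at 1 d, 4 to 5 at 4 d and 2 to 2 between the times. Over all probe sets, 1262, 1318 and 883 were called in the comparisons of 1 d and 4 d to PBS and of 4 d to 1 d. A fold of at least 2 gave 761, 738 and 476, and ordinary tests without moderation gave 832 at 4 d and 419 between the times. Leaving out 1 array gave 1019 to 1237, 1005 to 1455 and 587 to 912, with 587 without LPS 1 d replicate 2. The cause was not tested. Changes from a group at background (*Csf3*, *Csf2rb2*) are limited by it. Other background corrections were not tried, since scanner output was not used here.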
